A study of Mus musculus with 23 samples.

Results

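The 10 circadian clock genes Arntl, Clock, Per2, Per3, Cry1, Cry2, Nr1d1, Nr1d2, Dbp and Ciart were followed across 6 groups of neonatal mouse hippocampus. They were chosen by symbol from a table of read counts for 24421 genes, and 10 of 10 were present and passed the low-count filter that left 15475 genes for testing. Polyadenylated RNA was sequenced from hippocampus taken on postnatal day 14 in a study of anemia caused by repeated bleeding (phlebotomy-induced anemia, PIA). Non-bled control pups (NBC) had a needle prick to the neck only. Moderately anemic pups (mPIA) were bled from the facial vein toward a haematocrit of 25%, and severely anemic pups (sPIA) toward 18%. Draws of 5.25 µl per g body weight were made 2 times a day from postnatal day 3, and of 3.5 µl per g daily after the goal was reached. Each level was studied in females and males, with 4 libraries in a group except NBC males, which had 3 (numbered 2, 3 and 4). The haematocrits are goals, and those reached, the strain, the light schedule and the hour of tissue collection are not stated in the sources used here.

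The circadian clock is a feedback loop of transcription that runs in most cells and makes the levels of its genes follow the time of day. Arntl (also called Bmal1) and Clock encode the partners of an activator that binds E-boxes, and its targets include the repressors Per2, Per3, Cry1, Cry2 and Ciart, which act back on it. Nr1d1 and Nr1d2 encode the nuclear receptors REV-ERB alpha and beta, also E-box targets, which repress Arntl, and Dbp is an E-box target whose protein binds D-boxes in genes such as the Per genes.

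In males, 4 of the 10 genes fell in sPIA relative to mPIA, where 4.92% of all genes were called: Ciart by 0.72, Nr1d1 by 0.45, Dbp by 0.39 and Cry2 by 0.23 on the log2 scale. Relative to NBC males, Ciart, Nr1d1, Dbp and Cry2 stood at -0.49, -0.06, -0.1 and 0.01 in sPIA males and at 0.22, 0.39, 0.29 and 0.23 in mPIA males, none of them called. In females 2 of the 10 were called in sPIA relative to NBC, near the 16% of all genes. Dbp fell by 0.41, and Clock rose by 0.21. With a trend over the GC content and length of genes removed from each library, the Clock change was -0.04 (edgeR adjusted p = 0.661). Relative to NBC, 0 of the 10 were called in mPIA females (0.00646% of all genes were), in mPIA males (0.653%) or in sPIA males (0.194%), and Arntl was called in none of the 9 comparisons. None of the 10 showed a difference between the sexes in either anemia effect that passed the test. Of these 6 called changes, 1 (Ciart in males) was also called with that trend removed. None of the 6 was called in every fit, and a fit of sPIA and mPIA males alone called 0 of the 4 there. Changes are log2 differences of the first group named minus the second, from edgeR's quasi-likelihood test over all genes, called at a Benjamini-Hochberg adjusted p under 0.05.

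The promoters of the genes that fell are shown because these genes are targets of the E-box activator. Per3 is shown as a target of Dbp, and Arntl as one of Nr1d1 and Nr1d2, and their changes were not called. Each window runs from 250 bases before to 50 after an annotated RefSeq start (GRCm38.p6), written 5′ to 3′ on the gene's strand. RefSeq windows were found for 9 of the 10 genes, all but Per2. Capitals mark matches, on either strand, to the E-box CACGTG, the E-prime box CACGTT, the D-box TTATGTAA or the REV-ERB half-site AGGTCA. The windows are Ciart (chr3:95882179-95882478, minus strand), Nr1d1 (chr11:98775328-98775627, minus strand), Cry2 (chr2:92434020-92434319, minus strand), Dbp (chr7:45704997-45705296, plus strand), Per3 (chr4:151044616-151044915, minus strand) and the second Arntl window (chr7:113207261-113207560, plus strand).
Ciart: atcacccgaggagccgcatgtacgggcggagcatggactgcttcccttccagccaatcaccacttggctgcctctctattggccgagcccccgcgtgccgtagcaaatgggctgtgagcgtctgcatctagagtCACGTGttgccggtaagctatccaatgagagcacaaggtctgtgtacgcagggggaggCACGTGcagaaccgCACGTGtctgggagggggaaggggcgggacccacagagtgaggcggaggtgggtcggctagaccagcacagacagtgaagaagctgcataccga
Nr1d1: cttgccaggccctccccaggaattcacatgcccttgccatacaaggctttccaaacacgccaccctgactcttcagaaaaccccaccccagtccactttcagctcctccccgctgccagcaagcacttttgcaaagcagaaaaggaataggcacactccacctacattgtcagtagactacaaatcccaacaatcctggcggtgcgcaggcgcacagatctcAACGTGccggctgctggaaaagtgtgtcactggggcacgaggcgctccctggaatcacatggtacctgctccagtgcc
Cry2: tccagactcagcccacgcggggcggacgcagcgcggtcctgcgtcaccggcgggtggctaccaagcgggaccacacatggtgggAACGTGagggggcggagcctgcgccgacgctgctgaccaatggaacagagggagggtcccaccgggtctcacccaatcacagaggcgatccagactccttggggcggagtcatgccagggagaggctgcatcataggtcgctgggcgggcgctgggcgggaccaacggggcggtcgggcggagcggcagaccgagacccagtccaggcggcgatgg
Dbp: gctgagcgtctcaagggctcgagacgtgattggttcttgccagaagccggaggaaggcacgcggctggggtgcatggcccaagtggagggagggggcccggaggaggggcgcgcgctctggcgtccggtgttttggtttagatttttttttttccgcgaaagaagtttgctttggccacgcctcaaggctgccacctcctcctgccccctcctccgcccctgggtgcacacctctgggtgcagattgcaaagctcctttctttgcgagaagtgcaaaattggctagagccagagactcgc
Per3: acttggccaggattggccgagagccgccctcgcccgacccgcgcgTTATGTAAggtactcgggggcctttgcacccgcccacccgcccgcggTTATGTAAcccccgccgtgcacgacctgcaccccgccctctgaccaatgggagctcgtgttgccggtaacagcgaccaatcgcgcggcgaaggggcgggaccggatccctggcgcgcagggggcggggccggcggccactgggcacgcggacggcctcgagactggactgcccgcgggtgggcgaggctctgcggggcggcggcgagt
Arntl: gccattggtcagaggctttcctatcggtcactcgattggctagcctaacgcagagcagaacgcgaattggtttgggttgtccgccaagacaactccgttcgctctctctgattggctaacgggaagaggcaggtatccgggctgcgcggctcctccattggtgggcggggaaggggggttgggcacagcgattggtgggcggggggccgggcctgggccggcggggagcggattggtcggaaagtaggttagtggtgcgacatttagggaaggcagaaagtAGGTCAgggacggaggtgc

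Ciart held 3 E-boxes, beginning 116, 58 and 44 bases before its start. Of 32851 mouse windows of this length 7.15% held at least 1 E-box and 0.0883% held 3 or more. Nr1d1 and Cry2 each held 1 E-prime box, 28 and 166 bases before the start, written on the opposite strand as AACGTG, and 4.68% of windows held one. Dbp held none of the 4 motifs in this window. Per3 held 2 D-boxes, 205 and 158 bases before its start, where 0.938% of windows held at least 1 and 0.0213% at least 2. The second Arntl window held 1 half-site, which 16.3% of windows held, and the first, not shown, held none of the 4 motifs. Of the other windows not shown, that of Cry1 held 1 E-box and 1 E-prime box. That of Nr1d2 and window 3 of Clock held 1 half-site each, and Clock windows 1 and 2 held none of the motifs. A match is a run of letters and not evidence of binding.

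Library totals lay between 15.2 and 26.4 mega-counts (M), apart from mPIA female 3 with 44.4 M, so even the rarest gene, Ciart, had 75 to 309 counts in a library. The 12 hippocampal neuron markers were all detected, with a summed level of 984.7 to 1347 CPM (counts per M). The 12 markers of choroid plexus and ependyma, tissue next to the hippocampus, summed to as little as 19.6 CPM, in an mPIA male, and as much as 4665 CPM, in an NBC male. Library codes whose meaning is not given began with P in sPIA of both sexes and in NBC males, with M in mPIA males, and with a number in mPIA and NBC females. Apart from mPIA against NBC in females, the code series or the S number within it cannot be told apart from the group. The design text gives 4 males and 4 females a group, so libraries were read as separate animals; litters are not given.

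Per length of the longest annotated transcript, the 10 genes spanned a range of about 1 order of magnitude. Cry2 was highest at a mean of 32.3 CPM per kb, followed by Nr1d1 at 21.6, Nr1d2 at 19.7, Dbp at 18.3 and Clock at 14 CPM per kb. Arntl stood at 8.03, Per2 at 6.48, Per3 at 6.3, Cry1 at 3.39 and Ciart at 3.07 CPM per kb. Between the lowest and the highest group mean, Nr1d1 spanned 19.2 to 26.2, Nr1d2 17.4 to 21.6 and Dbp 15.7 to 21.1 CPM per kb, so the order of these neighbours was not separated from their spread. The same held for Per2 (5.75 to 7.5) and Per3 (5.7 to 6.68 CPM per kb), and for Cry1 (3.21 to 3.61) and Ciart (2.37 to 3.9 CPM per kb). Of the 10, Cry2 had the smallest spread between libraries of a group, with an SD of 0.0626 in log2 CPM, and Per2 the widest, with 0.249.

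**Figure D1:**
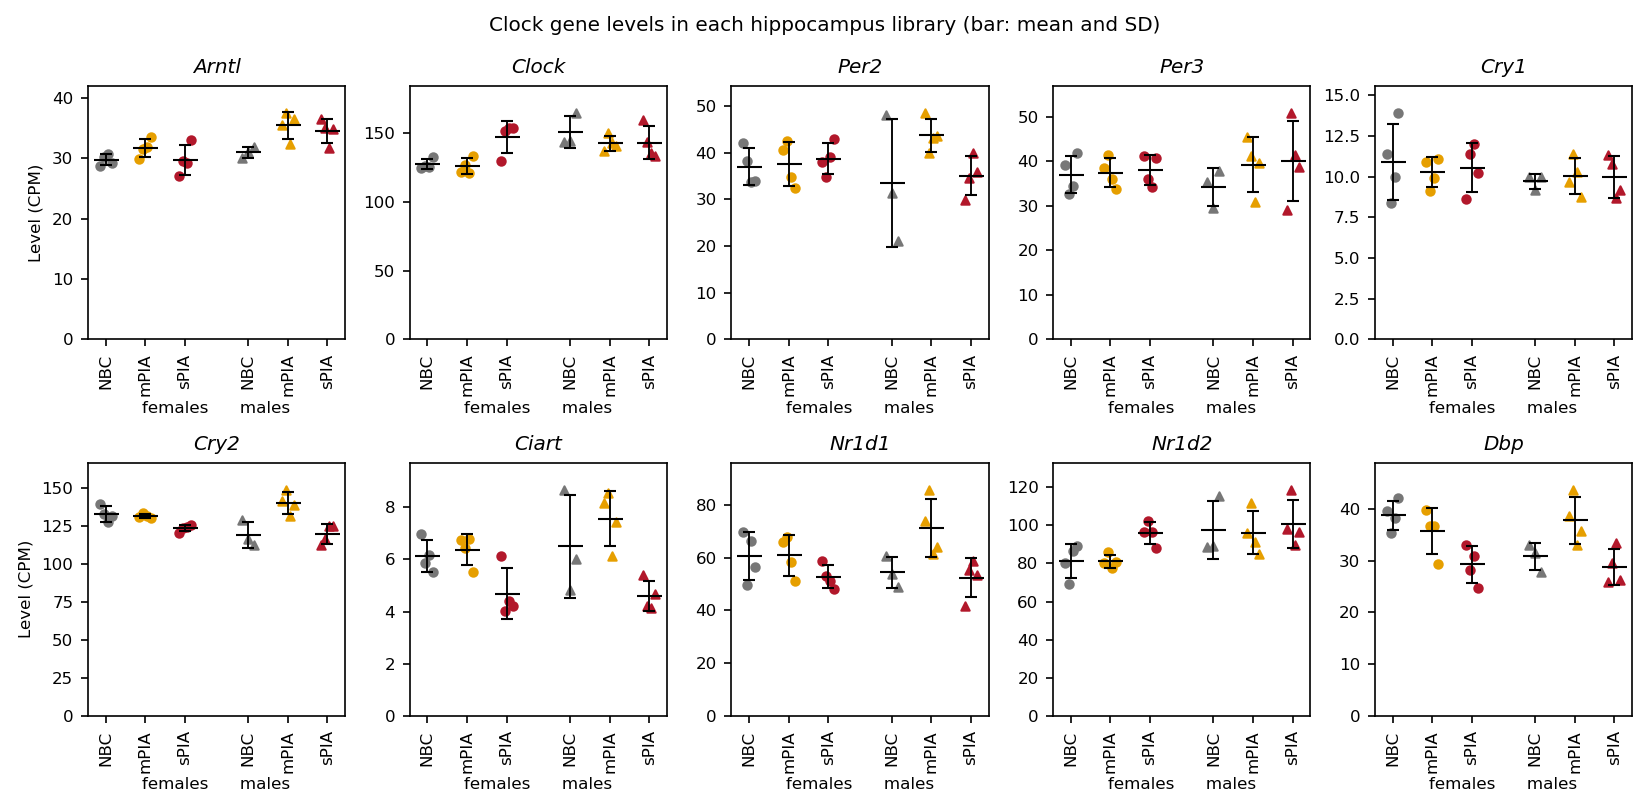
Level of each clock gene in CPM (vertical axis, from 0) in each library, for NBC, mPIA and sPIA in females (circles) and males (triangles). Bars give the group mean and SD. Ciart in sPIA males lies at no more than 5.39 CPM, below the 6.14 CPM of the lowest mPIA male, and Clock in sPIA females has 3 libraries above 151 CPM and 1 at 129.7 CPM.

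Between sPIA and mPIA males, whose code series also differ, 4 of the 10 genes were called, all lower in sPIA. Of all genes tested 4.92% were called in either direction and 2.8% lower. In bulk tissue, fewer cells of a type and less RNA per cell cannot be told apart. Ciart encodes a repressor of the activator (chromosome 3, 95878503 to 95882251, mm10). Ciart had 5.39, 4.2, 4.15 and 4.66 CPM in sPIA males, against 8.17, 8.55, 6.14 and 7.42 CPM in mPIA males. All sPIA libraries lay below all mPIA libraries, and Ciart averaged 4.6 ± 0.574 CPM in sPIA and 7.57 ± 1.06 CPM in mPIA (SD, n = 4 each). The log2 change was -0.72 (SE 0.178, edgeR adjusted p = 0.0225).

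Nr1d1, which encodes REV-ERB alpha (chromosome 11, 98767932 to 98775333), had 41.8, 55.2, 58.9 and 53.4 CPM in sPIA males and 73.9, 85.8, 61.3 and 64.2 CPM in mPIA males. The groups did not overlap, although sPIA male 3 came within a few CPM of mPIA male 3. Its means were 52.3 ± 7.38 CPM in sPIA and 71.3 ± 11.1 CPM in mPIA (SD, n = 4 each). The log2 change was -0.45 (SE 0.121, edgeR adjusted p = 0.0335). Cry2, a cryptochrome that binds and inhibits the activator (chromosome 2, 92403646 to 92434043), had 112.3, 116.8, 125.1 and 125.1 CPM in sPIA males, against 141.9, 149.1, 131.5 and 138.9 CPM in mPIA males. Again all sPIA libraries were lower, with a small change of -0.23 (SE 0.055, edgeR adjusted p = 0.0194). Dbp, the D-box activator (chromosome 7, 45705088 to 45710203), had 25.9, 29.5, 33.4 and 26.3 CPM in sPIA males and 38.7, 43.8, 33.0 and 35.8 CPM in mPIA males. The highest sPIA library passed the lowest mPIA library, and the change was -0.39 (SE 0.107, edgeR adjusted p = 0.032). Groups that do not overlap with sPIA below, as in 3 of the 10 genes, were seen in 5.74% of all genes.

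The other 6 genes were not called between these groups. Per2, a period gene, had 29.8, 34.5, 40 and 35.9 CPM in sPIA males and 48.5, 39.9, 43.2 and 43.5 CPM in mPIA males, so sPIA male 3 and mPIA male 2 crossed. Its change was -0.32 (SE 0.158, edgeR adjusted p = 0.233). Arntl averaged 34.6 ± 2.04 CPM in sPIA and 35.5 ± 2.25 CPM in mPIA, and Clock 143.3 ± 12 CPM in sPIA and 142.8 ± 5.39 CPM in mPIA (SD, n = 4 each). The approximate 95% interval of the change was -0.18 to 0.11 for Arntl and -0.12 to 0.13 for Clock. Per3, Cry1 and Nr1d2 had changes of 0.03, -0.01 and 0.07, not called, with edgeR adjusted p between 0.717 and 0.988.

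None of the 4 calls held in every fit. The Ciart call was lost without mPIA male 1 or 2 or sPIA male 2 (log2 -0.67 to -0.64, edgeR adjusted p 0.0563 to 0.0716). The Nr1d1 and Cry2 calls were lost without mPIA male 1 or 2 or sPIA male 1 or 2, with Nr1d1 at -0.47 to -0.34 (adjusted p 0.0653 to 0.14) and Cry2 at -0.22 to -0.19 (0.0588 to 0.0825). The Dbp call was lost without mPIA male 1, 2 or 4 or sPIA male 1, 2 or 4, at -0.41 to -0.31 (0.0538 to 0.124). All kept their direction. Together, 0 of the 4 were called without mPIA male 1, mPIA male 2 or sPIA male 2, and 1 was called without sPIA male 1. The count over all genes itself moved between 229 without mPIA male 1 and 1341 without sPIA male 4, against 762 with all libraries. In a fit of these 2 groups alone the adjusted p ran from 0.0543 for Ciart to 0.09 for Cry2. Choroid plexus and ependyma markers summed to 29.2 to 174.6 CPM in sPIA males and 19.6 to 57.4 CPM in mPIA males, with 12 of 12 detected. The 12 hippocampal neuron markers summed to 986.9 to 1312 CPM (median 1144) in sPIA males and 1257 to 1347 CPM (median 1308) in mPIA males, and the 5 astrocyte markers to 1891 to 2251 CPM in sPIA and 1742 to 1986 CPM in mPIA males. The part of these lists in the 4 changes was not tested. With the mean log2 level of the choroid plexus and ependyma markers in the fit, the 4 changes were -0.62, -0.4, -0.36 and -0.2 for Ciart, Nr1d1, Dbp and Cry2, with edgeR adjusted p of 0.0642, 0.0849, 0.0794 and 0.0595.

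**Figure D2:**
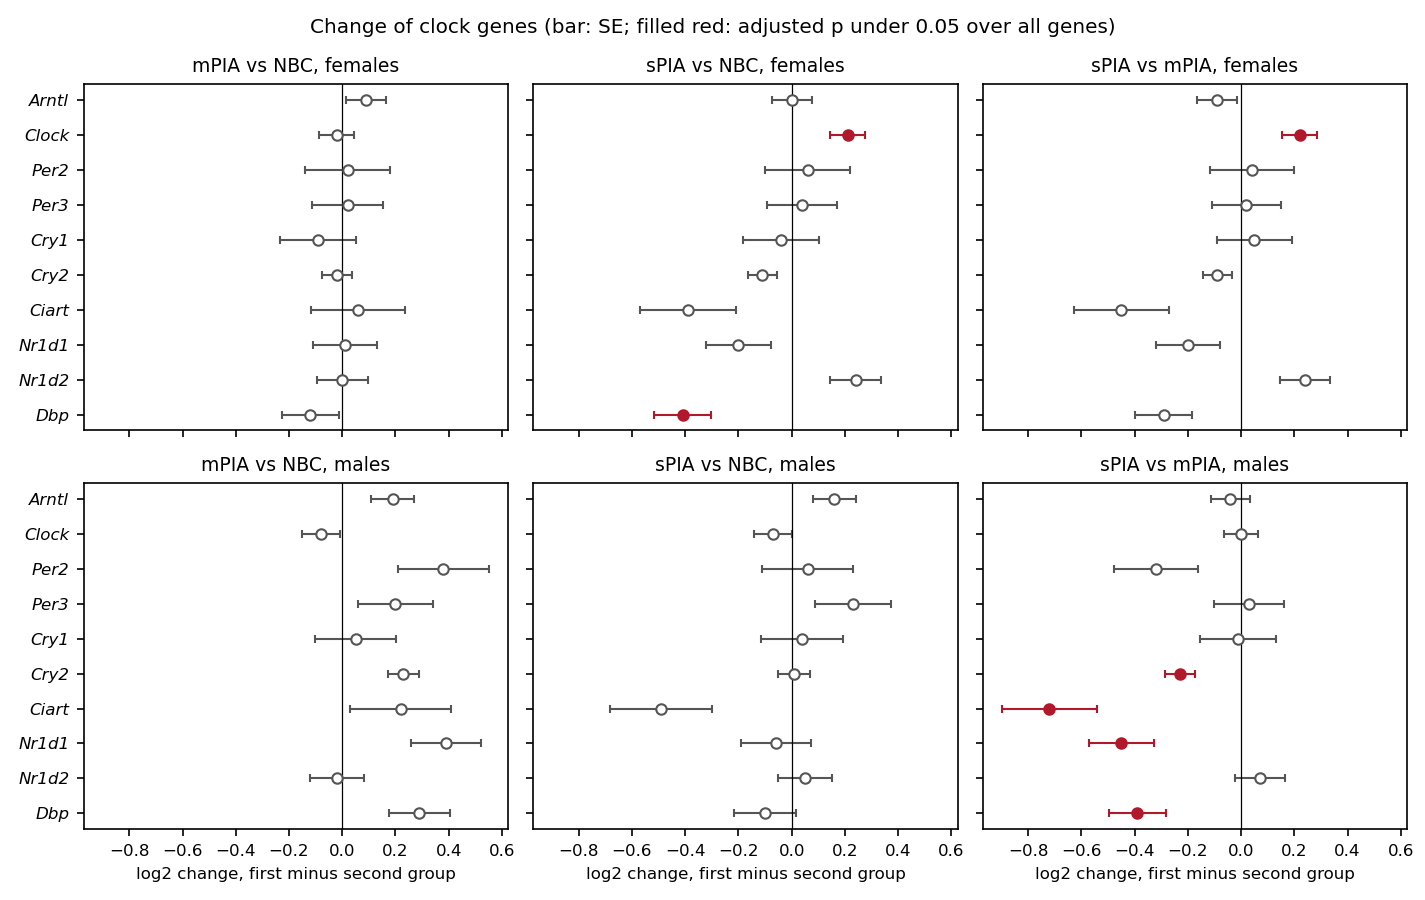
Log2 change of each clock gene (horizontal axis, first minus second group named above each panel) with its SE as bars, for 3 comparisons in females (top) and 3 in males (bottom). Filled red points passed an adjusted p of 0.05 over all genes; 4 do for sPIA against mPIA in males, 2 for sPIA against NBC in females, 1 for sPIA against mPIA in females and 0 in the other panels.

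In females, severe anemia was compared with both NBC and mPIA, and the comparisons share the sPIA libraries. Dbp had 33.1, 28.3, 31.0 and 24.8 CPM in sPIA females, against 39.7, 35.3, 38.3 and 42.1 CPM in NBC females. All sPIA libraries were lower, with sPIA female 4 lowest of all. Dbp averaged 29.3 ± 3.63 CPM in sPIA and 38.8 ± 2.86 CPM in NBC (SD, n = 4 each), a change of -0.41 (SE 0.108, edgeR adjusted p = 0.0107), and the call was lost without sPIA female 4 (-0.32, adjusted p = 0.0568). Relative to mPIA females, which had 29.4 to 39.9 CPM, the change was -0.29 and was not called (edgeR adjusted p = 0.0664). It was called without mPIA female 4 (-0.36, adjusted p = 0.0242) or sPIA female 1 (-0.35, 0.0333), and stood at -0.06 (0.813) with the GC and length trend removed. The 5 astrocyte markers summed to 2012 to 2251 CPM in sPIA females, above the 1709 to 1875 CPM of mPIA and the 1782 to 1852 CPM of NBC females. For the 5 endothelial markers the sum was 151.6 to 177.9 CPM in sPIA females, above the 128.5 to 150.5 CPM of NBC females, while mPIA females overlapped both with 142.6 to 165.3 CPM. All 10 were detected, and their part in the female results was not tested.

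Clock, the partner of Arntl in the activator (chromosome 5, 76209868 to 76304792), had 125.0, 126.4, 125.5 and 132.8 CPM in NBC females. It had 121.6, 127.2, 121.4 and 133.5 CPM in mPIA females, and 129.7, 151.4, 153.5 and 153.5 CPM in sPIA females. Of the sPIA libraries 3 lay above all the others, and sPIA female 1 lay within their range. The change was 0.21 relative to NBC (SE 0.0654, edgeR adjusted p = 0.0298) and 0.22 relative to mPIA (SE 0.0652, adjusted p = 0.0177). The call against NBC was lost without NBC female 1, 2 or 3 or sPIA female 2, 3 or 4 (log2 0.19 to 0.21, adjusted p 0.0552 to 0.0831). The call against mPIA was lost without mPIA female 1 or 3 or sPIA female 3 (0.21 to 0.22, adjusted p 0.052 to 0.0548). Called genes were thus 2 of 10 against NBC, where 16% of all genes were called, and 1 of 10 against mPIA, where 16.1% were, so the counts lie near the background. Leaving out 1 library moved the member counts between 0 and 3 in each comparison.

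Ciart in females was low in 3 of the 4 sPIA libraries, with 6.97, 5.88, 6.17 and 5.53 CPM in NBC, 6.75, 6.45, 6.79 and 5.5 CPM in mPIA, and 6.15, 4.01, 4.39 and 4.21 CPM in sPIA females. Its change was -0.39 relative to NBC (SE 0.181, edgeR adjusted p = 0.148) and -0.45 relative to mPIA (SE 0.179, 0.0873), neither called. Without sPIA female 1 both were called, at -0.54 (adjusted p = 0.0446) and -0.61 (0.0234). Nr1d2, which encodes REV-ERB beta, had 80.5, 69.1, 86.5 and 89.1 CPM in NBC females, 80.5, 85.9, 77.8 and 80.8 CPM in mPIA females and 96.3, 102.2, 96.5 and 88.2 CPM in sPIA females. The sPIA libraries lay above all mPIA libraries, as in 1750 of the 15475 genes tested, and overlapped those of NBC by 1 library. The changes were 0.24 in both comparisons, with edgeR adjusted p of 0.087 and 0.0917. In fits of only the groups compared both were called (adjusted p = 0.00975 relative to mPIA and 0.0452 relative to NBC). With the GC and length trend removed they were 0.06 (0.716) and 0.07 (0.719).

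Cry2 in females had 120.7, 123.7, 124.7 and 125.9 CPM in sPIA, all below the 130.3 to 133.7 CPM of mPIA and the 127.7 to 139.9 CPM of NBC. The changes of -0.09 and -0.11 were not called (edgeR adjusted p = 0.295 and 0.21). All libraries of sPIA lay below all of the other group for 13% of all genes against mPIA and for 11.2% against NBC. Nr1d1 averaged 60.5 ± 9.23 CPM in NBC females, 60.8 ± 7.62 CPM in mPIA females and 52.8 ± 4.47 CPM in sPIA females (SD, n = 4 each), with changes of -0.2 in both comparisons (edgeR adjusted p = 0.272 and 0.297). Arntl, Per2, Per3 and Cry1 stood at log2 -0.09 to 0.06 in these comparisons, and the interval for Arntl relative to NBC was -0.15 to 0.15.

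Base composition moved with the groups and with the members. For each library, its log2 level of a gene minus the average of all libraries was set against the gene's GC content, across 14882 genes. The resulting Spearman's rho, over genes that are not independent replicates, was 0.18 to 0.55 in NBC females, 0.15 to 0.47 in mPIA females and -0.44 to 0.03 in sPIA females. In males it was -0.26 to 0.02 in NBC, -0.1 to 0.3 in mPIA and -0.4 to -0.08 in sPIA. Of the 10 members, Dbp had the highest GC content, 61.6% in its longest transcript, above 97.9% of the genes tested, and Clock the lowest at 40.9%, above 8.48% of them. Nr1d2 had 41.8%, Nr1d1 56.8%, Cry2 55.6% and Ciart 52.2%, the last above 62.8% of genes.

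Each library's trend over GC content and transcript length was then removed. The Clock change in sPIA females became -0.04 relative to NBC (edgeR adjusted p = 0.661) and -0.03 relative to mPIA (0.784), neither called. Dbp in sPIA females was -0.17 relative to NBC (adjusted p = 0.369). Between sPIA and mPIA males, Dbp was -0.21 (0.309), Cry2 -0.13 (0.146) and Nr1d1 -0.33 (0.123). Ciart was -0.69 and was still called (edgeR adjusted p = 0.0409). In females Ciart stood at -0.3 relative to NBC and -0.34 relative to mPIA in this fit, and in sPIA relative to NBC males at -0.48, none of them called. The number of members called was then 0 in both female comparisons and 1 of 10 between sPIA and mPIA males. Over all genes, that fit called 1179 between sPIA and NBC females, 1403 between sPIA and mPIA females and 267 between sPIA and mPIA males, against 2472, 2499 and 762 as counted.

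**Figure D3:**
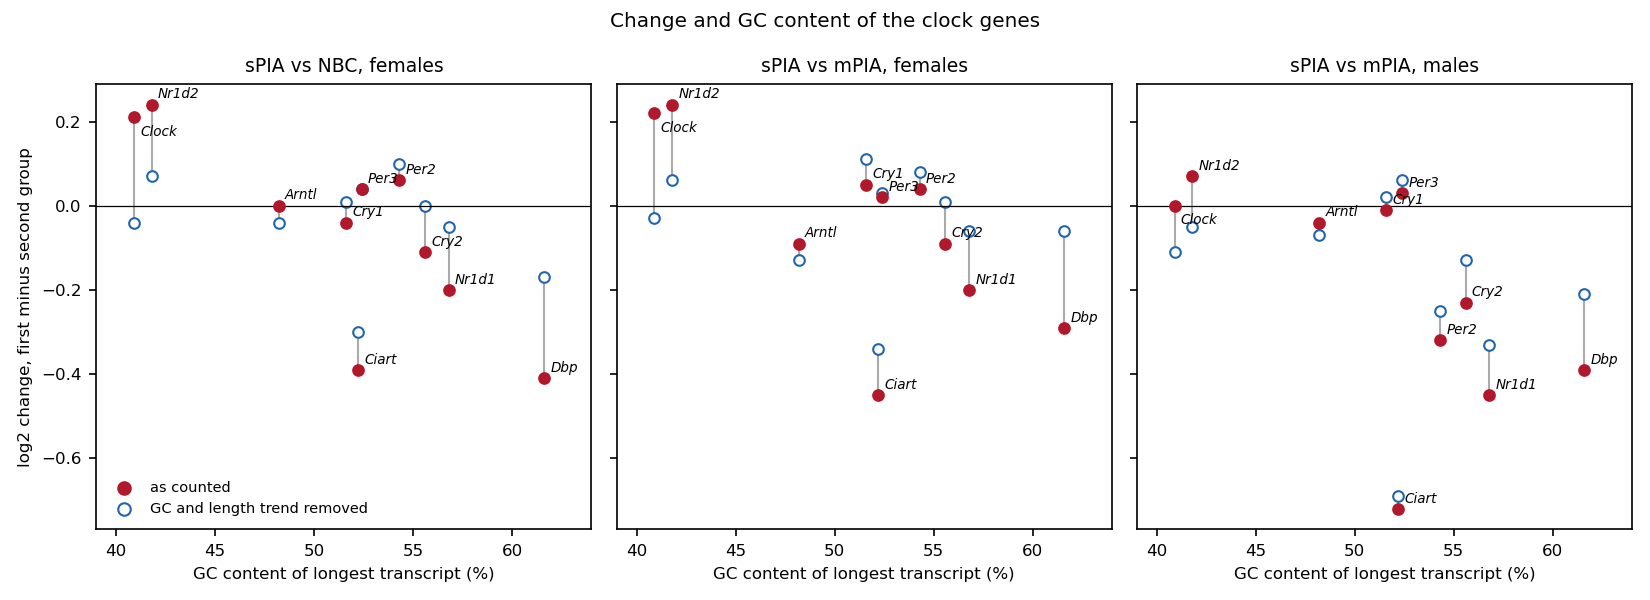
GC content of each clock gene's longest transcript (horizontal axis, %) against its log2 change (vertical axis, first minus second group) as counted (filled) and with each library's GC and length trend removed (open), in 3 comparisons. Dbp at 61.6% GC shifts toward 0. Clock at 40.9% shifts past 0 in the female comparisons, and from 0.0 to -0.11 between sPIA and mPIA males. Ciart at 52.2% moves little, to -0.69, between sPIA and mPIA males.

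Moderate anemia was compared with no bleeding in each sex. In females the 10 genes lay close to NBC, with changes between -0.12 for Dbp and 0.09 for Arntl, 0 called, and 0 with an unadjusted p under 0.05. Of all genes 0.00646% were called there. With the code prefix as a block, which only this comparison and that of sPIA with NBC males allowed, these changes ran from -0.11 to 0.09 and 0 were called.

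In males 0 of the 10 genes were called between mPIA and NBC (0.653% of all genes were), 5 had an unadjusted p under 0.05, and 8 of the 10 changes were positive. Over all 15475 genes 2475 had such a p and 8003 changes were positive. DESeq2 called 1, Cry2 (adjusted p = 0.0117). Cry2 had 141.9, 149.1, 131.5 and 138.9 CPM in mPIA males and 128.8, 116.6 and 112.6 CPM in NBC males, without overlap, a change of 0.23 (SE 0.0595, edgeR adjusted p = 0.0585). Nr1d1 had 73.9, 85.8, 61.3 and 64.2 CPM in mPIA males and 60.6, 53.7 and 49 CPM in NBC males, a change of 0.39 (SE 0.131, adjusted p = 0.137). Arntl had 35.5, 37.5, 32.3 and 36.5 CPM in mPIA males and 30.1, 31.1 and 31.9 CPM in NBC males, a change of 0.19 (SE 0.0806, adjusted p = 0.232). These 3 were the members whose mPIA libraries all lay above NBC, as 5.18% of all genes did.

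Per2 was the member that varied most in NBC males, at 48.2, 31.4 and 21 CPM, while mPIA males had 48.5, 39.9, 43.2 and 43.5 CPM. NBC male 2 lay at the level of mPIA, and NBC male 4 at less than any other library. The change was 0.38 with all libraries (SE 0.171, edgeR adjusted p = 0.274) and 0.71 without NBC male 2 (SE 0.142, adjusted p = 0.00307), where Cry2 was also called (0.28, 0.00978). Over all genes that same fit called 1124, against 101 with all libraries and 0 without NBC male 4. NBC males 2, 3 and 4 differed in choroid plexus and ependyma markers, with a lowest sum of 28.4, a median of 2619 and a highest of 4665 CPM. Ttr, one of them, had 1.23 CPM in NBC male 2, 2463 CPM in NBC male 3 and 4377 CPM in NBC male 4, so the 0.71 sets mPIA males against the 2 control libraries rich in these markers. With those markers in the fit, the Cry2 change was 0.16 (adjusted p = 0.951).

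Severe anemia in males was compared with NBC males, and 0 of the 10 genes were called, where 0.194% of all genes were. Ciart had 5.39, 4.2, 4.15 and 4.66 CPM in sPIA males and 8.68, 4.82 and 6.02 CPM in NBC males. The groups overlapped by 1 library, and the change of -0.49 had an unadjusted p of 0.0156 (SE 0.192, edgeR adjusted p = 0.284), the only one of the 10 under 0.05. Dbp stood at log2 -0.1 (interval -0.33 to 0.12), Nr1d1 at -0.06 (-0.31 to 0.2), Cry2 at 0.01 (-0.11 to 0.12) and Clock at -0.07 (-0.21 to 0.06). Over all genes the count moved between 4 without NBC male 4 and 249 without NBC male 2, while 0 members were called in any of those fits.

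Whether females and males differed in their response to anemia was tested directly. For mPIA against NBC, 0 of 10 members passed, as did 0 of all genes (0.0%), with 3 members and 1103 of all genes at an unadjusted p under 0.05. Those 3 were Cry2 (-0.25, females minus males, SE 0.081), Nr1d1 (-0.38, SE 0.178) and Dbp (-0.41, SE 0.157), with edgeR adjusted p of 0.659 to 0.688. For sPIA against NBC 0 of 10 members passed, where 0.95% of all genes did. Clock had the smallest p, with a difference of 0.28 (SE 0.0958, edgeR adjusted p = 0.139), and passed without sPIA male 1 (0.34, adjusted p = 0.0498), but stood at 0.07 (0.654) with the GC and length trend removed. Dbp had a difference of -0.3 (SE 0.158, adjusted p = 0.34), and of -0.15 (0.715) with the trend removed.

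Female and male controls differed in 1 of the 10 genes, Clock, where 10.1% of all genes were called. Clock had 125.0, 126.4, 125.5 and 132.8 CPM in NBC females and 143.6, 144.6 and 164.7 CPM in NBC males, with no overlap (females all below, as in 9.97% of all genes), a change of -0.24 (SE 0.0702, edgeR adjusted p = 0.0272). The call was lost without NBC female 1 (-0.24, 0.068) or NBC male 4 (-0.18, 0.181), and it was not called with the GC and length trend removed (adjusted p = 0.975). Dbp in NBC females lay above all NBC males, as did 10.6% of all genes, with a change of 0.33 that was not called (SE 0.116, adjusted p = 0.0676). Without NBC male 2 there were 4 called, Clock with Per2 (0.48, adjusted p = 0.027), Cry2 (0.2, 0.0368) and Nr1d2 (-0.34, 0.0466). That fit leaves NBC males 3 and 4, the control males rich in choroid plexus and ependyma markers (Ttr at 2463 and 4377 CPM). Over all genes, leaving out 1 library moved the count in this comparison between 440 and 2152, against 1570 with all libraries. Sex and code series cannot be told apart in these controls.

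The balance of the loop was described in each library as the mean log2 CPM of the E-box targets Dbp, Ciart, Nr1d1, Nr1d2, Per2 and Per3 minus that of Arntl and Clock. It is not tested, since its members were chosen with earlier results known. Its median in females was -0.86 in NBC, -0.84 in mPIA and -1.12 in sPIA, and in males -1.17 in NBC, -0.89 in mPIA and -1.11 in sPIA. In sPIA females 3 libraries lay at -1.23, -1.14 and -1.11 and sPIA female 1 at -0.76, and in NBC females all lay between -0.99 and -0.7. In mPIA females 3 libraries lay between -0.89 and -0.74, and mPIA female 4 stood at -1.15, within the range of sPIA. In males sPIA libraries reached from -1.44 to -1.0 and mPIA libraries from -1.0 to -0.76, and NBC male 2 stood at -0.82 beside -1.17 and -1.26 in NBC males 3 and 4. The median was thus lower in severe than in moderate anemia in both sexes, but the female groups overlapped, and NBC males overlapped both male groups. The balance was taken from levels as counted, without removal of the GC and length trend, and leaves out Cry1 and Cry2. GC content was 41.8% (Nr1d2) to 61.6% (Dbp) in its targets, 40.9% in Clock and 48.2% in Arntl. The part of base composition in the balance was not tested.

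**Figure D4:**
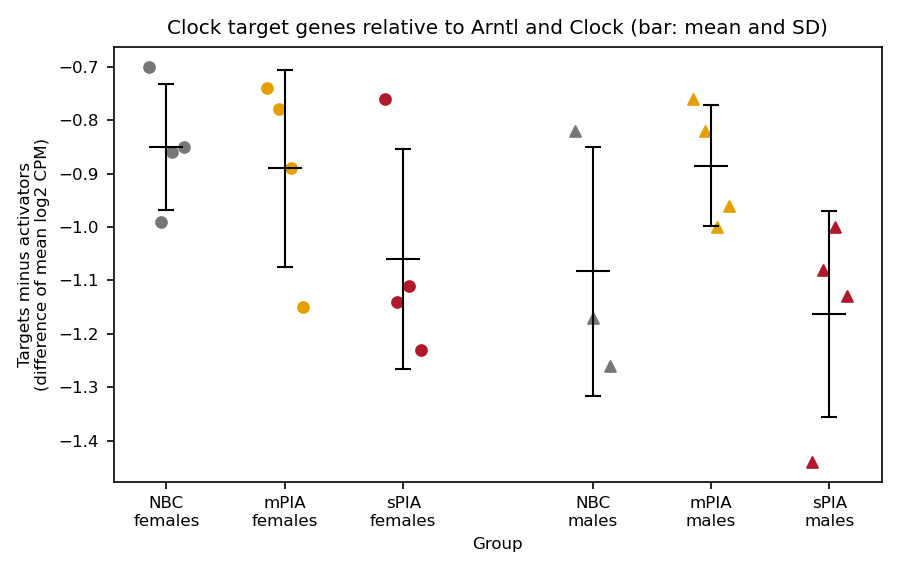
Mean log2 CPM of 6 E-box targets minus that of Arntl and Clock (vertical axis) in each library, for NBC, mPIA and sPIA in females (circles) and males (triangles), with group mean and SD as bars. sPIA males lie at -1.44 to -1.0 and mPIA males at -1.0 to -0.76, while sPIA female 1 at -0.76 and mPIA female 4 at -1.15 lie apart from the rest of their groups.

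Members also varied together between libraries of a group. Over 23 libraries, after subtraction of group means, Pearson's r was at least 0.5 for 7 of the 45 pairs and at most -0.5 for 4, and above 0 for 26. Nr1d1 and Dbp, both E-box targets, had the highest r at 0.78, followed by Per2 with Cry2 (0.68), Clock with Cry1 (0.62), Arntl with Clock (0.61) and Cry2 with Nr1d1 (0.6). The lowest were Clock with Per2 (-0.55), Per2 with Nr1d2 (-0.53), Arntl with Dbp (-0.51) and Clock with Nr1d1 (-0.51). Arntl and Clock each had r below 0 with Dbp, Nr1d1, Per2, Per3, Ciart and Cry2. Each had r above 0 with Cry1 (0.16 and 0.62) and with Nr1d2 (0.16 and 0.41). The points share a library, its depth and its base composition. Clock and Nr1d2 were the members lowest in GC, and Nr1d1 and Dbp, with the highest r, those highest in GC. The part of base composition in these r was not tested, and the share of such pairs over all genes is not given.

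**Figure D5:**
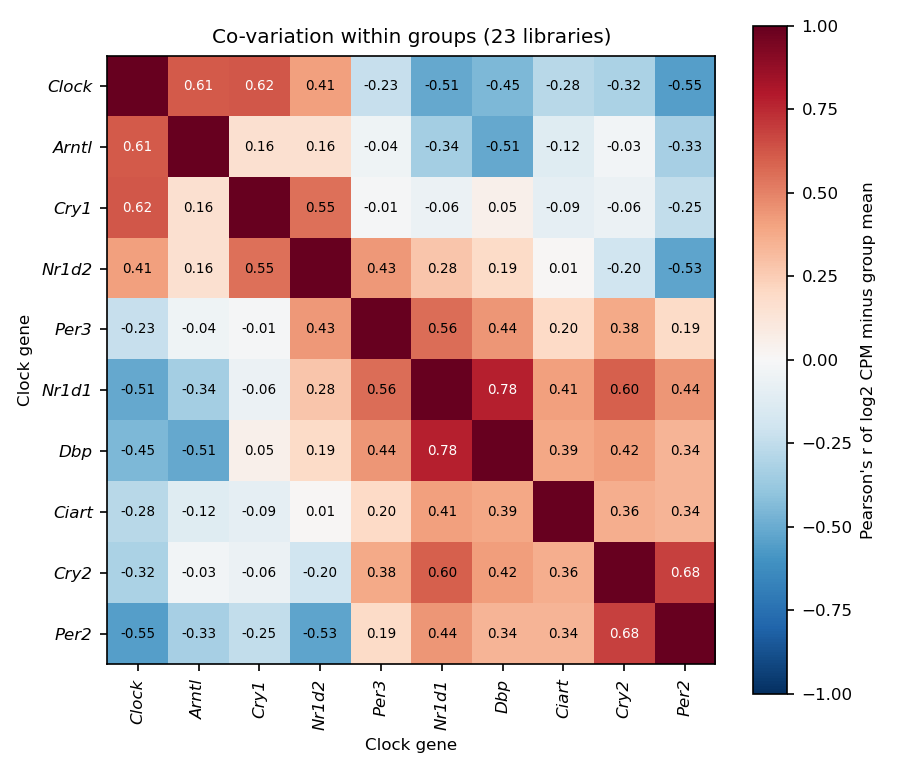
Pearson's r of log2 CPM after subtraction of group means for each pair of clock genes over 23 libraries (colour, from -1 blue to 1 red, value in each cell). Nr1d1 and Dbp stand at 0.78, Arntl and Clock at 0.61, and Clock and Per2 at -0.55.

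Among 12411 other genes, the within-group pattern of Dbp over the 23 libraries was most like those of Prr14 (r = 0.75), Mzf1 (0.73), Man2b1 (0.73), Cercam (0.73) and Repin1 (0.72). Its most opposite patterns were those of Fam210a (-0.8), Abracl (-0.79), Igsf1, Ckap4 and Ndufs4 (-0.75 each). For Arntl the most alike were Pcdhb12 (0.82), Fras1 (0.78), Homer2 and Mal2 (0.76 each) and Ddx50 (0.75), and the most opposite Kat2a (-0.81), Emg1 (-0.77), H2-Ke6 (-0.75), Fah and Wscd1 (-0.74 each). The r of 0.78 between Dbp and Nr1d1 lay above that of any of these genes alike to Dbp. Dbp and Nr1d1 are the members highest in GC, and the part of base composition in these patterns was not tested.

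Some members share their place in the genome with other genes, and the strand setting of the counting is not given, so their reads may be mixed. Nr1d1 overlaps Thra, the thyroid hormone receptor alpha gene on the opposite strand, by 1075 bases, and Thra stood at log2 -0.12 between sPIA and mPIA males (edgeR adjusted p = 0.331), where Nr1d1 fell by 0.45. In sPIA relative to NBC females Thra fell by 0.23 (adjusted p = 0.0278), a call lost in 6 fits that left out 1 library and with the GC and length trend removed (-0.03, 0.858), beside an uncalled -0.2 for Nr1d1. Cry2 overlaps D930015M05Rik on the opposite strand by 23417 bases, and that gene had at most 4 counts in a library and was not tested. Dbp overlaps Sphk2, a sphingosine kinase gene on the opposite strand, by 737 bases, and Sphk2 stood at log2 -0.07 between sPIA and NBC females (adjusted p = 0.703) and at -0.05 between sPIA and mPIA males (0.788). Ciart lies within the opposite-strand transcript C920021L13Rik, which had a mean of 0.631 CPM in sPIA males and 0.748 CPM in mPIA males. Per3 lies within the span of Camta1, a far more abundant gene on the same strand that rose by 0.37 in sPIA relative to NBC females (edgeR adjusted p = 0.000656), while Per3 stood at 0.04 and was not called.

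A wider list of 26 further clock genes had 25 members in the table, all tested. Of these, 3 fell and 0 rose between sPIA and mPIA males, 4 fell and 3 rose between sPIA and mPIA females, and 3 fell and 2 rose between sPIA and NBC females, where 4.92%, 16.1% and 16% of all genes were called. Between mPIA and NBC males 1 rose, where 0.653% of all genes were called. None were called between mPIA and NBC females (0.00646%), between sPIA and NBC males (0.194%) or in the sex differences for mPIA (0.0%) and sPIA (0.95%). In NBC females 2 were lower than in NBC males, where 10.1% of all genes were called. The medians of the list lay between -0.06 and 0.08 in the 9 comparisons, beside -0.01 to 0.01 over all genes and -0.17 to 0.21 for the 10 members.

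Per1, the period gene paired with Per2, had 61.9, 56.7, 63.5 and 64.7 CPM in sPIA males and 92, 90, 96 and 103.1 CPM in mPIA males. The groups were far apart, and Per1 fell by 0.63 (SE 0.117, edgeR adjusted p = 0.00535). Bhlhe40, an E-box target and repressor also called Dec1, had 69.1, 68.5 and 67.2 CPM in NBC males, 94.0, 98.5, 97.7 and 103.7 CPM in mPIA males and 75.6, 63.7, 60.8 and 80.2 CPM in sPIA males. It fell by 0.49 in sPIA relative to mPIA males (SE 0.0818, edgeR adjusted p = 0.0021) and rose by 0.53 in mPIA relative to NBC males (SE 0.089, 0.0111). The second call was lost without NBC male 4 (0.51, 0.128) and with the choroid plexus and ependyma markers in the fit (0.51, 0.939). In females Bhlhe40 fell by 0.49 in sPIA relative to mPIA (adjusted p = 0.000203) and by 0.32 relative to NBC (0.00879), and the call against NBC was lost without NBC female 1 (-0.26, 0.0601).

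Npas2, a paralog of Clock that can take its place beside Arntl, had 27.2, 22.0, 24.6 and 24.1 CPM in NBC females, 31.0, 27.5, 25.8 and 24.3 CPM in mPIA females and 16, 19, 15 and 14 CPM in sPIA females. All sPIA libraries lay below the rest, and Npas2 fell by 0.76 relative to mPIA (SE 0.156, edgeR adjusted p = 0.00145) and by 0.61 relative to NBC (SE 0.157, 0.00937). In males it fell by 0.54 in sPIA relative to mPIA (SE 0.155, adjusted p = 0.0434), a call lost without any one of mPIA male 1, mPIA male 2, mPIA male 4, sPIA male 1, sPIA male 2 or sPIA male 3 (-0.6 to -0.39, adjusted p 0.0636 to 0.137). Hlf, a D-box activator of the family of Dbp, fell by 0.78 in sPIA relative to mPIA females (SE 0.245, edgeR adjusted p = 0.0379), a call lost on leaving out any 1 of 7 libraries, all but mPIA female 4 (-0.8 to -0.73, adjusted p 0.063 to 0.0993). Tef, the remaining member of that family, stood at log2 -0.15 to 0.06 in the 6 within-sex comparisons with edgeR adjusted p of at least 0.117.

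Csnk1e, a kinase that acts on PER proteins, fell by 0.22 in sPIA females relative to NBC and by 0.25 relative to mPIA. Nampt, an enzyme of NAD synthesis, rose by 0.25 and 0.32 in the same comparisons. Relative to NBC, the Csnk1e call was lost without NBC female 1 (-0.19, edgeR adjusted p = 0.0654) and the Nampt call without any 1 of 3 (0.2 to 0.25, 0.0565 to 0.113). With the GC and length trend removed these changes were -0.09 and -0.11 for Csnk1e and 0.05 and 0.12 for Nampt, none of them called. Rorb, a receptor of the family that opposes REV-ERB, rose by 0.36 in sPIA relative to mPIA females (edgeR adjusted p = 0.049), a call lost on leaving out any 1 of 6 libraries (0.29 to 0.42, adjusted p 0.0514 to 0.164) and in 4 other fits (0.13 to 0.36, 0.0573 to 0.637). Rorb and Nampt were also lower in NBC females than in NBC males, with changes of -0.42 (edgeR adjusted p = 0.0453) and -0.28 (0.0314). The Rorb call was lost without any 1 of 6 libraries and in 5 other fits (-0.51 to -0.21, adjusted p 0.0504 to 0.457), and the Nampt call without any 1 of 4 and in 4 other fits (-0.28 to -0.09, 0.0579 to 0.467). The called changes of Per1 and Bhlhe40 in sPIA relative to mPIA, and those of Npas2 in females, were also called with the trend removed.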

How the data were processed

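Polyadenylated RNA of 23 hippocampus libraries was measured as reads per gene. The authors deposited whole-number counts, which the values show were not normalized. RNA was extracted with the RNAqueous kit and libraries followed Illumina TruSeq protocols, per the labels' protocols. FastQC, TopHat2 2.0.13, Subread and edgeR with the mm10 build are named per the submitters' processing notes; their roles, the annotation and the strand setting are not stated in the sources used here. Groups came from the labels.

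Genes passed edgeR's filterByExpr (minimum count 10, total 15), leaving 15475, and all libraries entered 1 quasi-likelihood fit (edgeR 4.0.16, robust, TMM) with 6 group means. P-values were Benjamini-Hochberg adjusted over all genes at 0.05. Log2 CPM used a prior count of 2; intervals are approximate 95% intervals. Positions, GC content and length came from GENCODE release M21 (23358 rows matched, 95.6%). Replicates differed beyond sampling noise, with chi-square divided by its degrees of freedom at 3.0 to 30.1. The test was also run on simulated counts. These held no trend over GC content and no differences by code series or choroid plexus share, so that run does not bear on them. Alternatives used DESeq2 1.42.0 and limma 3.58.1 in R 4.3.3. The members and lists were chosen with earlier results of these data known; named were all 10 members, the called genes of a wider clock list (1 is not reported here) with Bhlhe40, Npas2, Tef and Hlf, overlapping genes, and the 5 genes most and least like Dbp and Arntl. The main fit did not pair libraries by replicate number. In mPIA and NBC females, same-numbered libraries share a code prefix.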

Additional observations from a re-analysis of the deposited data

Results flagged for a closer look

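Of 55 sets of 4 libraries (a clock gene or the balance measure in a group) examined for a library far from the others, 1 stood out, and chance gives about 1 in 20. Clock lay at 129.7 CPM in sPIA female 1 and at 151.4 to 153.5 CPM in the other 3 sPIA females, a gap of 0.913 of the whole range, above Dixon's critical value for 4 samples. The same library had Ciart at 6.15 CPM beside 4.01 to 4.39 CPM. Its balance, of which Clock and Ciart are parts, was -0.76 beside -1.23 to -1.11. Its rho between GC content and deviation was 0.03 beside -0.44 to -0.23. What sets this library apart was not tested.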

How the results depend on the processing

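Of the 90 values (10 genes in 9 comparisons), 8 were called, and 2 of those changed sign. With the GC and length trend removed, Clock in sPIA females was -0.04 relative to NBC and -0.03 relative to mPIA, neither called. Over all pairs of a value and a fit, a value not called in either fit changed sign in 106, and the largest of these values measured 0.16 with all libraries. Counted in the same way, and besides the 2 that changed sign, calls were lost in 29 pairs whose fit left out a library and in 15 others. Calls were gained in 10 and 4. Leaving out 1 NBC male leaves that group with 2 libraries.

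For members called, mPIA against NBC males gave 0, and 1 with DESeq2 (0 to 2 without 1 library). In sPIA against NBC females 2 were called, and 0 with the trend removed (0 to 3 without 1 library). In sPIA against mPIA females 1 was called, 0 with the trend removed and 2 with only the groups compared (0 to 3). In sPIA against mPIA males 4 were called, 1 with the trend removed, 0 with the choroid plexus markers in the fit, an alternative chosen after seeing the data, and 0 with only the groups compared (0 to 4). The sex difference for sPIA gave 0 (0 to 1). NBC females against males gave 1, with 2 by DESeq2, and 0 with the trend removed, with the markers or with only the groups compared (0 to 4).

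Over all genes, mPIA against NBC females gave 1, and 0 with the trend removed, by limma-voom or with the replicate block, 6 with the code prefix as a block and 2 with only the groups compared (0 to 1 without 1 library). In males that comparison gave 101, and 381 by DESeq2, 0 with the markers, 24 by limma-voom, 1 with only the groups compared and 43 with the replicate block (0 to 1124). In sPIA against NBC females 2472 became 1179 with the trend removed (1421 to 2705). In males 30 became 155 by DESeq2, 14 with the markers, 7 with the code prefix as a block and 6 with only the groups compared (4 to 249). In sPIA against mPIA females 2499 became 1403 with the trend removed (1582 to 2769). In males 762 became 1220 by DESeq2, 267 with the trend removed, 326 with the markers and 307 with only the groups compared (229 to 1341). The sex difference for mPIA gave 0 (0 to 69). That for sPIA gave 147, and 463 by DESeq2, 46 with the markers, 5 with only the groups compared and 93 with the replicate block (5 to 327). NBC females against males gave 1570, and 647 with the trend removed, 806 with the markers and 668 with only the groups compared (440 to 2152). The cause was not tested.

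Libraries with the same replicate number did not deviate together when all groups were pooled (median r = 0.01 over 55 pairs, and -0.01 over 165 with different numbers). In mPIA against NBC females, whose same-numbered libraries share a code prefix, r was 0.04 to 0.15 over 4 pairs. The main fit did not pair libraries by number. The replicate block changed no member's call. It ended the calls of Hlf (edgeR adjusted p = 0.0586) and Rorb (0.0669) in sPIA against mPIA females. Those of Rorb (0.0747) and Nampt (0.0579) between NBC females and males were also lost. DESeq2's size factors and no low-count filter moved no count by more than 1.5 times.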
